A study of Homo sapiens with 2 samples.

Results

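Molecular chaperones of the heat shock families were compared between MDA-MB-231, a triple negative human breast cancer cell line, and RT-R-MDA-MB-231, its radiotherapy-resistant derivative. The group was a fixed list of 39 gene symbols, all present among the 24462 symbols of the count files, and comprised 8 classes: small heat shock proteins, HSP70 and HSP110, HSP90 with its co-chaperones, HSP60 with HSP10, the heat shock factors, DNAJ co-chaperones with BAG3, the chaperonin TRiC, and prefoldin. The label of the group, cytosolic heat shock proteins and chaperonins, does not describe every gene in it, since HSPA9, HSPD1 and HSPE1 encode mitochondrial proteins and HSF1 and HSF2 encode transcription factors. The resistant line (RT-R below) had been irradiated with X-rays in 2 Gy fractions to 50 Gy in all. Both lines grew in RPMI 1640 with 10% fetal bovine serum and antibiotics, and no heat shock or acute irradiation is mentioned for either. Each line gave 1 library of 3' end tags, so differences between lines cannot be set against the spread between cultures, and no test across samples was possible. Whether the resistant cells were a clone or a pool is not given in the sources used here.

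Small heat shock proteins hold unfolding proteins in a soluble state. HSP70 binds exposed hydrophobic stretches and is driven by DNAJ proteins, which stimulate its ATPase, and by nucleotide exchange factors such as the HSP110 proteins and BAG3. HSP90 matures kinases and steroid receptors together with co-chaperones, TRiC folds actin and tubulin inside a closed chamber, and prefoldin delivers those chains to it. The heat shock factor HSF1 binds repeats of a short element, GAA and its complement in alternation, in front of many of these genes.

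That element was looked for in the 250 bases before each gene start of the RefSeq promoter table (GRCh38.p14), which held 35 of the 39 symbols, all but CRYAB, HSF1, HSPA14 and PFDN2. The shorter motif, 2 units, was GAANNTTC or TTCNNGAA, and the longer motif, 3 units, was GAANNTTCNNGAA or TTCNNGAANNTTC. N is any base. Each short form is its own reverse complement and the long forms are each other's, so both strands were searched, and every long match contains short ones. The short motif was found for 16 of the 35 genes (45.7%) and the long one for 5 (14.3%). Over all 27305 genes of the table the shares were 13.96% and 0.557%, and over its 35116 promoters 11.6% and 0.441%. A match describes letters and not a bound site. The windows below are 80 bases long, read 5' to 3' on the strand of the gene, with matches in capitals. They are shown because these genes carry the element and lay on both sides of equal expression: HSPB1, HSPB8, HSPA1A, HSPA1B, HSP90AA1 and HSPA8 were lower in RT-R, and DNAJB1 and DNAJB6 higher.
HSPB1: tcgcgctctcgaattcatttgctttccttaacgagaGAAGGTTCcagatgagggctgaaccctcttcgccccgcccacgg
HSPB8: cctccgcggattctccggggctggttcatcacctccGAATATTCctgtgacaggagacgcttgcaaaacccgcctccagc
HSPA1A: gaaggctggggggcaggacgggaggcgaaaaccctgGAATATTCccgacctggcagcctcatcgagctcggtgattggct
HSPA1B: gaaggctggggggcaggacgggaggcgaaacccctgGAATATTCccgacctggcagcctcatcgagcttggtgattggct
HSP90AA1: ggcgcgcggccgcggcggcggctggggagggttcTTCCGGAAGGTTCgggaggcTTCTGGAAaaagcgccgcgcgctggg
HSPA8: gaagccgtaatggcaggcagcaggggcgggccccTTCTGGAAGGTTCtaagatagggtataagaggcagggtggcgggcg
DNAJB1: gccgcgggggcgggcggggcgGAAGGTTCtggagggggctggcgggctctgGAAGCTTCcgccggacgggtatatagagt
DNAJB6: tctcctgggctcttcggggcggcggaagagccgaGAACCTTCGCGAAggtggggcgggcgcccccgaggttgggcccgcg

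In GRCh38.p14 these windows lie at chr7:76302455-76302534 (+ strand) for HSPB1, chr12:119178807-119178886 (+ strand) for HSPB8, chr6:31815401-31815480 (+ strand) for HSPA1A, chr6:31827597-31827676 (+ strand) for HSPA1B, chr14:102087087-102087166 (- strand) for HSP90AA1, chr11:123062146-123062225 (- strand) for HSPA8, chr19:14518416-14518495 (- strand) for DNAJB1 and chr7:157336839-157336918 (+ strand) for DNAJB6, all upstream of an annotated start. The HSP90AA1, HSPA8 and DNAJB6 windows each hold a long match. The stretches before HSPA1A and HSPA1B were identical at 235 of 249 aligned bases. HSP90AB1 and HSPD1 were the other two genes with a long match.

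Most of the chaperone genes differed by less than 1.5-fold between the lines. With at least 20 counts in either library required, 38 of the 39 genes were measured, against 12644 genes in all. CRYAB, the small heat shock protein alpha B-crystallin, had 0 counts in both libraries, which allows up to 3 counts in each, so it was not detectable at this depth. A gene was called higher or lower at 2-fold when its log2 ratio reached that limit and the 95% interval for counting error lay on the same side of equal expression. By this rule 1 chaperone gene was higher (6.89% of all measured genes) and 2 were lower (3.97% of all). At a limit of 1.5-fold 2 were higher, 5.26% of those measured against 13.7% of all genes, and 6 were lower, 15.8% against 11.9%. The median log2 ratio of RT-R to parental was -0.13, against -0.01 over all measured genes, and the median size of the log2 ratio, whatever its sign, was 0.32 against 0.34. The interval lay above equal expression for 13 genes (27.7% of all measured genes) and below it for 19 (30.4% of all). Intervals narrow with depth. Where either library had at least 500 counts, 17 of 32 chaperones lay below and 11 above, and the shares over all 4228 such genes were 44.4% below and 32.6% above. Large blocks of neighbouring genes differed together in these libraries, so each ratio was also set against the median of the 15 measured genes on each side. By fold alone, 4 chaperone genes (HSPB1, HSPB8, HSP90AA1 and AHSA1) were then lower past 1.5-fold than their neighbours (9.63% of all genes) and 3 (HSPA2, PFDN2 and DNAJB6) higher (14.0% of all). Of the 6 genes lower past 1.5-fold before this subtraction, 2 (HSPB1 and HSPB8) remained, and HSPA1B, HSPA4L, HSPE1 and PFDN6 fell short.

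**Figure D1:**
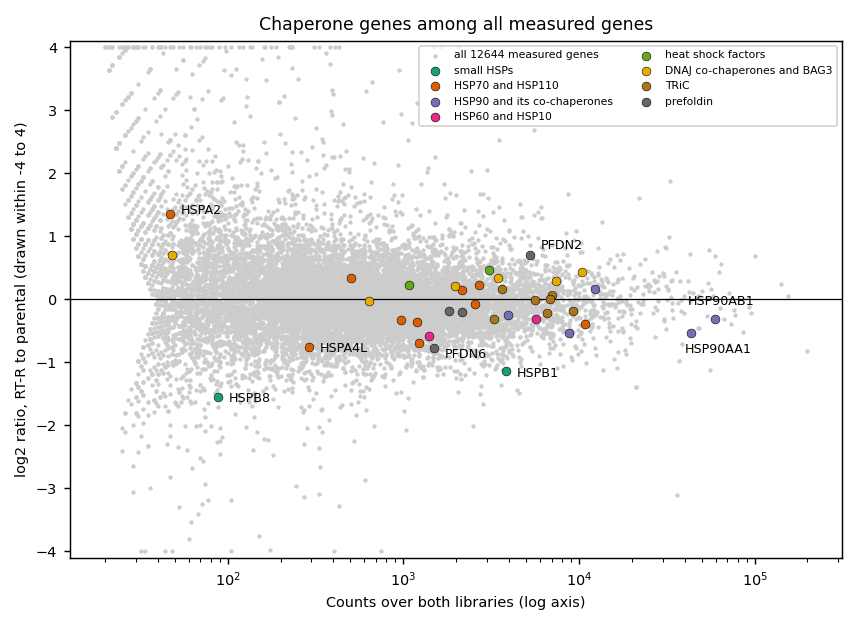
Log2 ratio of RT-R to parental (vertical axis, drawn within -4 to 4) against the counts of both libraries together (log axis) for all 12644 measured genes in grey and the 38 measured chaperone genes in colour by class. HSPB1 and HSPB8 lie below -1, HSPA2 lies above 1, and the HSP90 genes lie at the right edge, below 0.

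Counts of the group as a whole summed to 123354 of the parental and 119314 of the RT-R library. That is 1.33% (exact binomial interval 1.33 to 1.34%) of the parental and 1.19% (1.18 to 1.198%) of the RT-R counts, and after scaling a 1.15-fold lower sum (1.14 to 1.16). HSP90AA1 and HSP90AB1 together carried 56013 of the parental and 47020 of the RT-R counts. Without this pair the remaining 37 genes summed to 67341 and 72294 counts, 1.04-fold lower after scaling. These shares weigh genes by tags, which the kit takes from transcript ends and which were not divided by transcript length.

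The small heat shock proteins had the largest median difference of the 8 classes, over 2 measured genes. HSPB1, which encodes HSP27, had 2555 parental and 1290 RT-R counts, 2.21-fold lower (2.07 to 2.36). HSPB8, the partner of BAG3 in clearing aggregated proteins by autophagy, had 64 and 24 counts, 2.97-fold lower (1.83 to 4.97). Both measured genes of the class were therefore lower past 2-fold, and these were the only 2 such genes of the group. The chromosome 7 genes around HSPB1 were lower as well. The median log2 ratio of its neighbours was -0.46, and HSPB1 lay at -1.14, which leaves a difference of -0.69 from its neighbours, past 1.5-fold and short of 2-fold. HSPB8 lay at -1.55 against a neighbour median of -0.02. Within 500 bases of annotated transcript ends, 12.0% of the 75-base windows of HSPB1 also occurred in the pseudogenes HSPB1P1 or HSPB1P2, and 0% of those of HSPB8 occurred in another gene.

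**Figure D2:**
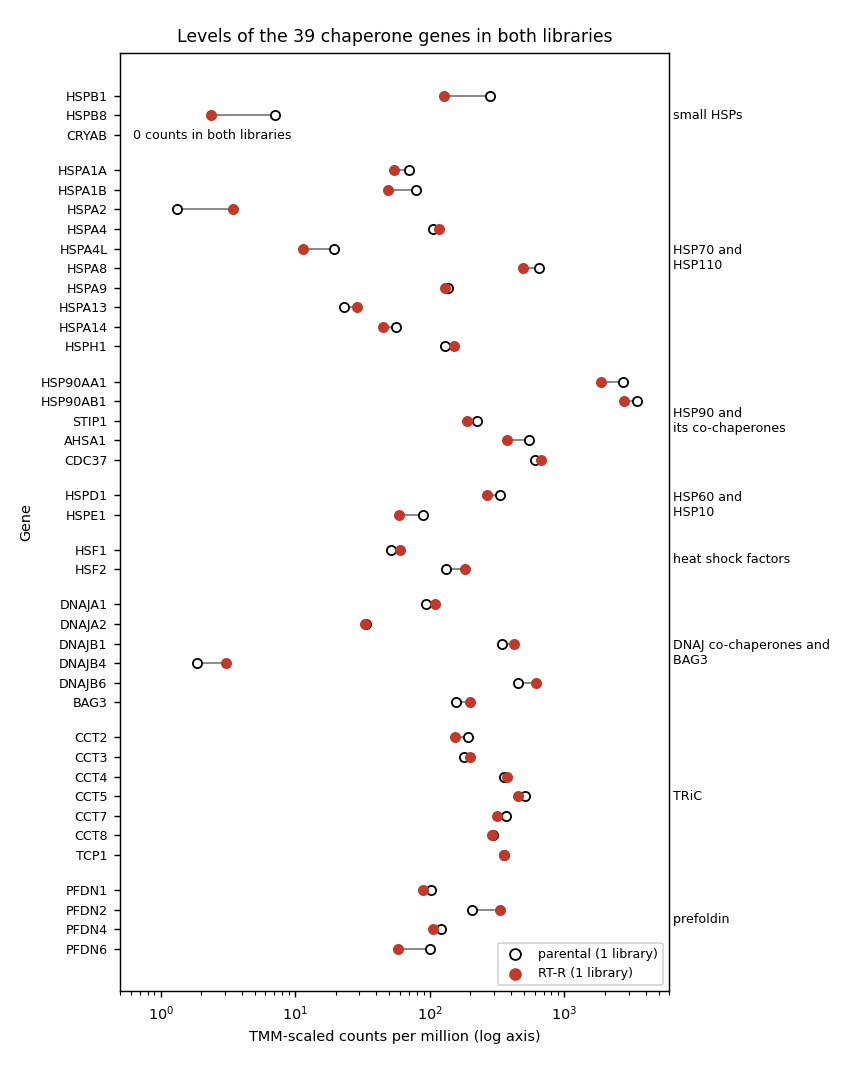
Counts scaled by TMM to a common library size (log axis) of the 39 chaperone genes by class, with the parental library as open and the RT-R library as filled points, 1 library each. HSPB1 and HSPB8 show the filled point far to the left, HSPA2 and PFDN2 far to the right, and the points of most TRiC subunits nearly coincide.

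HSP70 genes lay on both sides. The constitutive cytosolic HSP70, HSPA8, had 5879 and 5013 counts, 1.31-fold lower (1.26 to 1.36). The stress-inducible copies HSPA1A and HSPA1B were lower too, HSPA1A with 637 and 553 counts (1.28-fold, 1.14 to 1.44) and HSPA1B with 724 and 499 counts (1.62-fold, 1.44 to 1.82). Summed, the pair gave 1361 and 1052 counts and a 1.44-fold lower level (1.33 to 1.57), under the 1.5-fold limit. Their proteins are near identical and how the authors' counting divided shared reads is not given, so the split between them is uncertain. Of the 75-base windows near the annotated transcript end, 17.6% for HSPA1A and 0% for HSPA1B occurred in another gene's transcripts. HSPA1B made up 53.2% (50.5 to 55.9%) of the pair's counts in parental cells and 47.4% (44.4 to 50.5%) in RT-R, with interval bounds that coincide at this rounding.

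Among the remaining genes of the class, HSPA4L, an HSP110 relative, had 176 and 116 counts, 1.69-fold lower (1.33 to 2.16), whereas HSPA4 and HSPH1, the other HSP110 genes, were slightly higher at 1.11-fold (1.02 to 1.21) and 1.17-fold (1.08 to 1.26). HSPA2, an HSP70 best known from the testis, had 12 parental and 35 RT-R counts, 2.62-fold higher (1.33 to 5.53). HSPA2 was the only gene of the group higher past 2-fold, and it passed the count minimum through the RT-R library alone, where it was high. HSPA13, a microsomal HSP70, was 1.26-fold higher (1.05 to 1.51), and HSPA14, which works on the ribosome, was 1.25-fold lower (1.10 to 1.42). HSPA9, the mitochondrial HSP70, had 1246 and 1316 counts, and its interval included equal expression (ratio 0.947, 0.876 to 1.02). The class as a whole summed to 11537 and 11007 counts, 1.17-fold lower (1.14 to 1.20), and HSPA8 supplied 51.0% (50.0 to 51.9%) of that sum in parental cells and 45.5% (44.6 to 46.5%) in RT-R.

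Both HSP90 genes and 2 of the 3 co-chaperones listed with them were lower, without reaching 1.5-fold. By interval, 4 of the 5 genes lay below equal expression and 1 above. Over the 2257 genes with at least 1000 counts in either library, 46.7% lay below and 35.9% above. HSP90AA1, the inducible alpha form, had 24717 and 19021 counts, 1.45-fold lower (1.42 to 1.48). HSP90AB1, the constitutive beta form, had 31296 and 27999, 1.25-fold lower (1.23 to 1.27). The alpha form supplied 44.1% (43.7 to 44.5%) of the pair's counts in parental cells and 40.5% (40.0 to 40.9%) in RT-R. These intervals do not overlap, but they cover counting error only. AHSA1, the activator of the HSP90 ATPase, was 1.46-fold lower (1.40 to 1.52), and STIP1, the HOP adaptor between HSP70 and HSP90, 1.19-fold lower (1.12 to 1.27). CDC37, which brings kinases to HSP90, was an exception with 5473 and 6819 counts, 1.12-fold higher (1.08 to 1.16). The chromosome 14 neighbours of HSP90AA1 had a median log2 ratio of 0.19, so the difference of HSP90AA1 from them was -0.73 on the log2 scale, and AHSA1 on the same chromosome differed from its neighbours by -0.66. The pseudogene row HSP90AB4P had 453 and 459 counts, and adding it to HSP90AB1 left the ratio at 1.24-fold lower.

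The mitochondrial chaperonin followed the same direction. HSPD1, which encodes HSP60, had 3003 and 2697 counts, 1.24-fold lower (1.18 to 1.31). HSPE1, its HSP10 lid, had 804 and 595, 1.51-fold lower (1.35 to 1.68), at the edge of the 1.5-fold limit. The readthrough row HSPE1-MOB4 had 133 and 159 counts, and 18.7% of the HSPE1 windows were shared with that transcript or with HSPE1 pseudogenes. With that row added, HSPE1 was 1.39-fold lower (1.26 to 1.53).

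Both heat shock factors and most of the DNAJ class were higher in RT-R, by less than 1.5-fold wherever the interval lay above equal expression. HSF1, the main activator of the heat shock response, had 466 and 608 counts, 1.17-fold higher (1.04 to 1.32), and overlaps DGAT1 (497 and 615 counts) in RefSeq. Since use of strand in the counting is unknown, reads of overlapping genes cannot be told apart. HSF2, a related factor, had 1205 and 1852 counts, 1.38-fold higher (1.28 to 1.48). Of the 6 genes of the DNAJ class, 4 had intervals above equal expression (27.7% of all measured genes) and 0 below (30.4% of all). These 4 reached 500 counts in a library, where 32.6% of all genes lay above and 44.4% below. DNAJ genes outside the group did not share this direction. Of 20 measured in the list of other DNAJ genes, 5 lay above (25.0%) and 8 below (40.0%), with a median log2 ratio of -0.13. DNAJB6, a suppressor of protein aggregation, had 4135 and 6235 counts, 1.35-fold higher (1.30 to 1.41), while its chromosome 7 neighbours had a median log2 ratio of -0.33. DNAJB1, the HSP40 induced by heat, had 3134 and 4275 counts (1.22-fold, 1.17 to 1.28), and the exchange factor BAG3 1434 and 2023 (1.26-fold, 1.18 to 1.35). DNAJA1 was 1.15-fold higher (1.05 to 1.26). DNAJA2 had 306 and 335 counts and DNAJB4 17 and 31, both with intervals that included equal expression, and DNAJB4 overlaps the more abundant FUBP1 (553 and 632 counts). Within each library, the 5 DNAJ genes and the HSP70 genes of the group were summed. HSPA4, HSPA4L and HSPH1 were left out as HSP110, while mitochondrial HSPA9 and microsomal HSPA13 were kept. The 5 DNAJ genes supplied 47.8% (47.1 to 48.6%) of this sum in parental cells and 59.5% (58.8 to 60.1%) in RT-R. This share does not depend on the scaling between libraries. It leaves out the list of other DNAJ genes, which summed to 13734 and 15279 counts (ratio 0.998, 0.975 to 1.02).

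**Figure D3:**
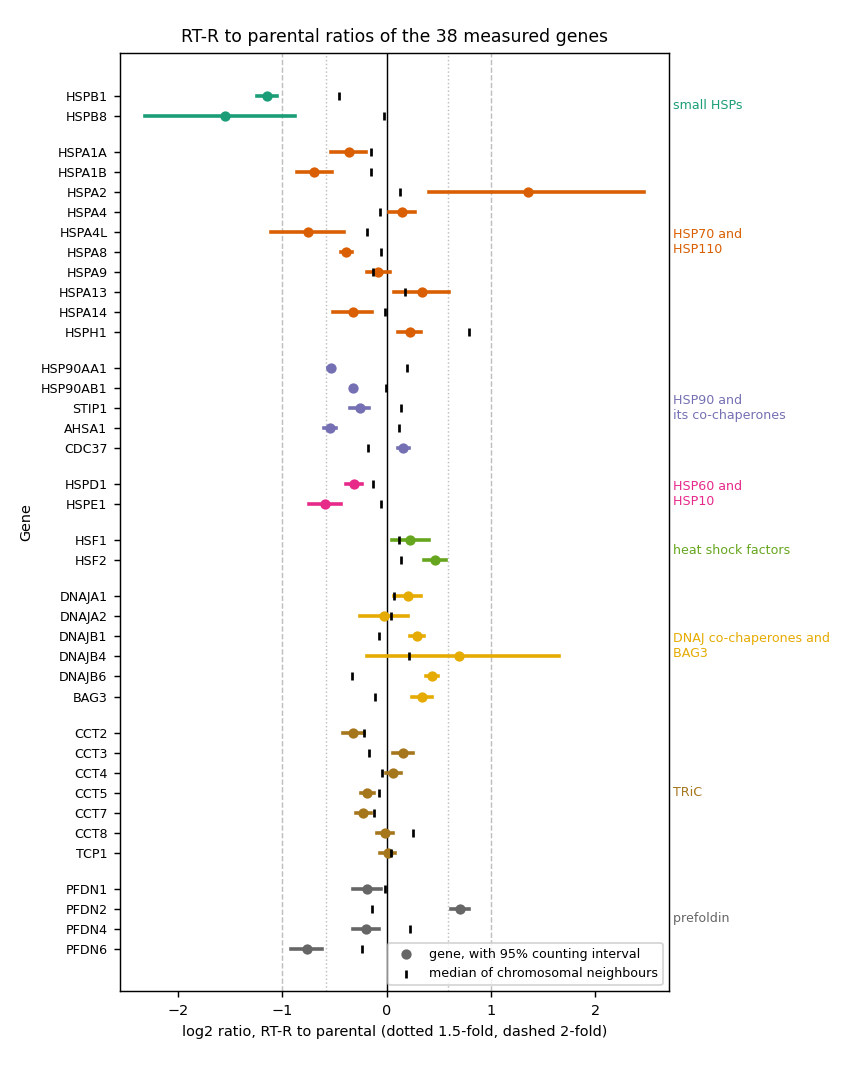
Log2 ratio of RT-R to parental for the 38 measured genes by class, with 95% counting intervals as bars and the median of the 15 measured neighbours on each side as a black tick. The HSP90, HSP60 and HSP10 points lie left of 0 except CDC37, the heat shock factor points and those of the DNAJ class other than DNAJA2 lie right of 0, and HSPH1 lies well left of its neighbours' tick.

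Genes usually described as induced by heat did not share a direction. Of 13 genes so listed (HSPB1, HSPB8, CRYAB, HSPA1A, HSPA1B, HSPA4L, HSP90AA1, HSPD1, HSPE1, HSPH1, DNAJB1, DNAJB4 and BAG3), 12 were measured, 5 were lower past 1.5-fold (11.9% of all measured genes) and 0 higher (13.7% of all). Their median log2 ratio was -0.45, and that of the 26 genes outside the list was -0.02. Of the 5 lower genes, HSPA1B depends on its uncertain split from HSPA1A, and HSPE1 was lost under every other scaling. By fold alone relative to neighbours, HSPB1 and HSPB8 stayed lower past 1.5-fold, HSPA1B, HSPA4L and HSPE1 fell short, and HSP90AA1 entered. HSPH1, DNAJB1 and BAG3 had intervals above equal expression (27.7% of all genes) and 8 genes had intervals below it (30.4% of all). HSPH1 lies on chromosome 13 among genes with a median log2 ratio of 0.79, so its own value of 0.22 differed from theirs by -0.56. The promoter matches cut across these directions as well. The 5 genes with the long motif had a median of -0.32, and 4 of them (HSP90AA1, HSP90AB1, HSPA8 and HSPD1) were lower while DNAJB6 was higher. All 5 reached 1000 counts in a library, where 46.7% of all genes had intervals below equal expression and 35.9% above. The 11 genes with only the short motif had a median of -0.36 and ranged from -1.55 for HSPB8 to 0.69 for DNAJB4. The 19 genes with neither motif had a median of -0.01. The lists were drawn up with earlier results of these libraries known, so these medians are descriptions.

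TRiC, built of 8 related subunits, had the smallest median difference of the classes. Its 7 listed genes had log2 ratios between -0.32 for CCT2 and 0.16 for CCT3, and none reached 1.5-fold in either direction. The median size of these ratios was 0.16, against 0.29 for the 2257 genes that reached 1000 counts in either library, a limit that all 7 passed. Summed counts were 20522 and 21724, 1.05-fold lower after scaling (1.03 to 1.07). TCP1, the alpha subunit, had 3243 and 3640 counts (ratio 1.01, 0.960 to 1.06) and overlaps ACAT2 (2823 and 3250 counts). CCT8 had 2669 and 2953 counts (0.992, 0.941 to 1.05), and CCT4 3261 and 3805 (1.05, 0.998 to 1.10). CCT5 and CCT7 were 1.14-fold (1.09 to 1.18) and 1.17-fold (1.11 to 1.22) lower. The subunit outside the list, CCT6A, had 3817 and 2925 counts, a log2 ratio of -0.54, and went from 15.7% (15.2 to 16.1%) to 11.9% (11.5 to 12.3%) of the counts of the complex. The subunits assemble in equal number, so their tags do not give protein stoichiometry: CCT5 had the largest share in both libraries (19.1% and 18.5%), and the smallest was that of CCT3 in parental cells (6.67%) and of CCT2 in RT-R (6.31%).

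Prefoldin was less even than TRiC, with log2 ratios spanning 1.47 over 4 genes against 0.48 over 7. PFDN2, a beta subunit, had 1862 and 3379 counts, 1.63-fold higher (1.54 to 1.72), and its chromosome 1 neighbours had a median log2 ratio of -0.14. PFDN6, another beta subunit, went the other way with 907 and 594 counts, 1.70-fold lower (1.53 to 1.89). Its neighbours on chromosome 6 had a median of -0.24, and its difference from them was -0.53, short of 1.5-fold. WDR46, which overlaps PFDN6, had 958 and 916 counts. PFDN1 and PFDN4 were 1.14-fold (1.04 to 1.25) and 1.15-fold (1.05 to 1.25) lower. With the alpha subunits PFDN5 (4681 and 4464 counts) and VBP1 (788 and 439) added, PFDN2 went from 18.1% (17.4 to 18.9%) to 31.2% (30.3 to 32.0%) of the prefoldin counts and PFDN6 from 8.84% (8.296 to 9.40%) to 5.48% (5.06 to 5.92%). VBP1 was 2.00-fold lower (1.78 to 2.25) and lies on the X chromosome, where the median log2 ratio of 424 measured genes was -0.78.

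**Figure D4:**
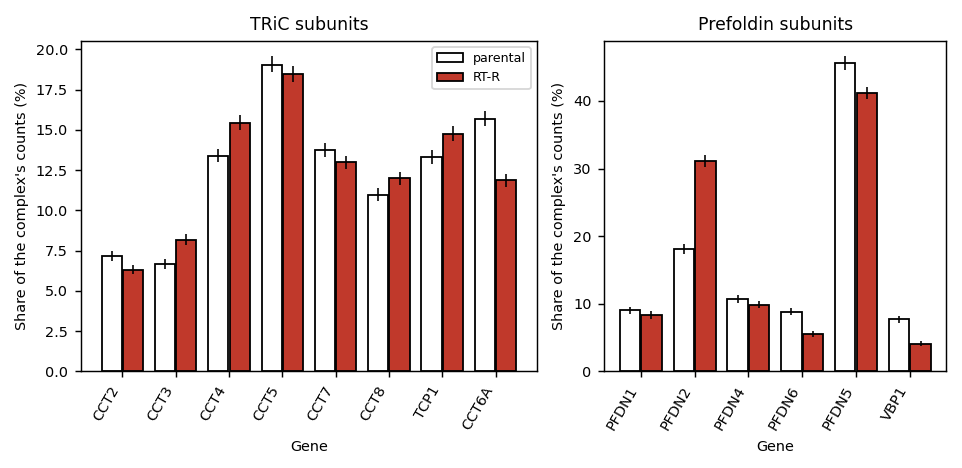
Share of each subunit in the summed counts of TRiC (left, with CCT6A) and prefoldin (right, with PFDN5 and VBP1) in the parental (open) and RT-R (filled) library, with exact 95% binomial intervals. The CCT6A bars stand at 15.7 and 11.9% and the PFDN2 bars at 18.1 and 31.2%.

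Few chaperone genes outside the group differed by 1.5-fold. Of 111 such genes in 8 lists, 98 were measured, with a median log2 ratio of -0.09. Past 1.5-fold, 6 were higher (6.12%, against 13.7% of all measured genes) and 8 lower (8.16%, against 11.9%), both under the shares over all genes. In the list of other HSP90 co-chaperones, 1 of 15 was higher (6.67%, against 13.7% of all measured genes) and 1 lower (6.67%, against 11.9%). The higher one was FLCN, an HSP90 client rather than a co-chaperone, with 325 and 612 counts (1.69-fold, 1.47 to 1.94). The lower one was the immunophilin FKBP4, with 721 and 489 (1.64-fold lower, 1.46 to 1.85). The HSP70 exchange factor BAG1 had 753 and 544 counts, 1.54-fold lower (1.38 to 1.73). HSPA12A had 33 and 58, 1.58-fold higher (1.01 to 2.495). They were the only such genes among 10 of their list (10.0% in each direction, against 11.9% of all lower and 13.7% higher). Among 20 other DNAJ genes, 1 was higher (5.0%, against 13.7% of all) and 1 lower (5.0%, against 11.9%). DNAJB2 had 147 and 252 counts, 1.54-fold higher (1.25 to 1.897), and DNAJC24 260 and 180, 1.61-fold lower (1.33 to 1.96). DNAJB2 lies on chromosome 2 among genes with a median log2 ratio of 0.54, and its difference from them was 0.08. DNAJC24 differed from its neighbours by -0.62. In the list of other TRiC, prefoldin and chaperonin helpers, 3 of 15 were lower (11.9% of all measured genes) and 0 higher (13.7% of all). The lower ones were the prefoldin-like gene UXT (2.25-fold, 1.89 to 2.68), VBP1 and the phosducin-like gene PDCL3 (1.72-fold, 1.31 to 2.27). UXT and VBP1 are X-linked, and 65.3% of the 424 measured genes on that chromosome were lower past 1.5-fold. In mitochondria, TRAP1, the HSP90 of that compartment, had 519 and 328 counts, 1.76-fold lower (1.53 to 2.03). GRPEL1, the exchange factor of HSPA9, had 1205 and 871, 1.54-fold lower (1.41 to 1.69). That is 2 of 15 lower (13.3%, against 11.9% of all) and 0 higher (13.7% of all).

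By interval, 8 of 19 measured chaperones of the endoplasmic reticulum lay above equal expression (42.1%, against 27.7% of all measured genes). The same number, 8, lay below (42.1%, against 30.4% of all). These shares depend on depth: past the 500-count limit used above, 32.6% of all genes lay above and 44.4% below. Past 1.5-fold, 3 of the 19 chaperones were higher (15.8%, against 13.7% of all genes) and 0 lower (11.9% of all). HSPA5, the HSP70 known as BiP, had 21355 and 38146 counts (1.60-fold, 1.58 to 1.63). DNAJC10 had 614 and 1118 (1.63-fold, 1.48 to 1.80) and DNAJC3 436 and 802 (1.65-fold, 1.47 to 1.86). DNAJC3 lies on chromosome 13 among genes with a median log2 ratio of 0.87, and its difference from them was -0.14. The median log2 ratio of the list was 0.02. The summed counts of this list went from 0.836% (0.830 to 0.842%) of the parental to 0.965% (0.959 to 0.972%) of the RT-R library. HSPA5 carried this difference: without it, a sum made after its values were seen, the other 18 genes gave 56027 and 58543 counts, 0.605% (0.6004 to 0.610%) and 0.585% (0.580 to 0.589%), 1.07-fold lower after scaling (1.06 to 1.08). HSP90 with its listed co-chaperones went from 0.740% (0.735 to 0.746%) to 0.595% (0.590 to 0.5996%). The lists of other small heat shock proteins (1 of 7 measured) and other heat shock factors (3 of 4 measured) held no measured gene whose ratio and interval both met the 1.5-fold rule. The measured gene of the first of these lists, HSPB11, placed there by its symbol, had 427 and 483 counts (ratio 1.01, 0.889 to 1.16). HSPB6, with 1 and 9 counts, had an interval above equal expression (ratio 8.07, 1.12 to 354) but was under the count minimum of 20.

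**Figure D5:**
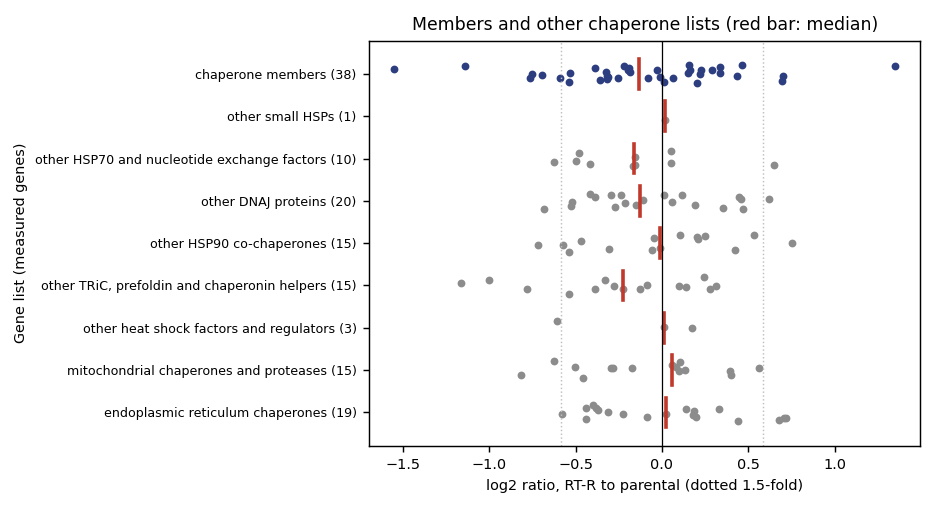
Log2 ratio of RT-R to parental of the measured genes of the group (top row) and of 8 other chaperone lists, each point a gene and each red bar the list median, with the number of measured genes in brackets. All medians lie within the 1.5-fold lines, and the 2 lowest points of the top row are HSPB8 and HSPB1.

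The libraries held 9255008 parental and 10014804 RT-R counts over 16631 and 17598 detected symbols, and all intervals given here cover counting error within these libraries only. The receptor genes ESR1 and PGR had at most 1 count in either library and ERBB2 had 230 and 174. The ESR1 and PGR levels match the triple negative label, and ERBB2 protein was not measured. Of 9 mesenchymal-like and epithelial markers, which do not bear on receptor status, VIM, CD44, AXL, KRT18 and KRT19 each had over 1000. The others were EGFR (444 and 749), KRT8 (590 and 578), CDH1 (32 and 68) and EPCAM (15 and 26). Of 19 markers of leukocytes, endothelium, fibroblasts and red cells, CD68 (346 and 452), PECAM1 (223 and 50), COL1A1 (59 and 76) and CD14 (14 and 39) had over 9 counts in a library. The defining markers PTPRC, CD3E, COL3A1, DCN and PDGFRA had 0 counts in both. The level of messenger RNA per cell cannot be told apart from the number of cells that express a gene.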

How the data were processed

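Total RNA of each line was made into a Lexogen QuantSeq 3' tag library, 1 per line, per the labels' protocols. What the authors deposited are unnormalized counts, whole numbers listed by gene symbol. The tools bcl2fastq 2.20.0.422, bedtools and Bowtie2 and the build hg19 come from the submitters' processing notes. Tool settings, annotation, strand use and the handling of multiply matching reads are not given there. Repeated symbols were summed (HSPA1A, HSPA1B and PFDN6 had 5 rows each, 1 of them with counts). No row lacked a gene name.

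Libraries were scaled over all genes by TMM (edgeR 4.0.16, R 4.3.3; RT-R to parental size ratio 1.12). Log2 ratios used scaled counts plus 0.5. Ratios carry exact conditional Clopper-Pearson 95% intervals (scipy 1.17.1) and shares exact binomial ones; PCR reads without molecular identifiers are not independent molecules. edgeR and DESeq2 served for scaling only, since no test across samples is possible. The calculations were tested on simulated libraries.

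Gene order came from RefSeq (GRCh38.p14), which placed 98.6% of measured genes, and transcript ends from GENCODE v29. The read length is not given, so windows of 75 bases are an example. Members past 1.5-fold are given with both counts, as are up to 3 higher and 3 lower genes of each other list. Members and lists were chosen with earlier results of these data known. Alternatives were 3 other scalings, pseudocount 5, count minimums of 0 and 100, fold alone, the HSPA1 pair summed, and subtraction of chromosomal neighbours.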

Additional observations from a re-analysis of the deposited data

How the results depend on the processing

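With a minimum of 100 counts in a library, 0 chaperone genes were higher and 1 was lower past 2-fold, and 1 was higher past 1.5-fold, because HSPA2 and HSPB8 then had too few counts to enter. Of the 9418 genes that passed this minimum, 10.5% were higher and 11.4% lower past 1.5-fold. At the minimum of 20 counts, 6.89% of all genes were higher and 3.97% lower past 2-fold. Relative to chromosomal neighbours, 1 gene (HSPB8) was lower past 2-fold, since HSPB1 then fell short. The count of 6 genes lower past 1.5-fold (11.9% of all genes with TMM) was 5 under each of the other 3 scalings, where HSPE1 was lost. Relative to neighbours it was 4 (9.63% of all genes), of which 2 (HSPB1 and HSPB8) were among the 6. HSPA1B, HSPA4L, HSPE1 and PFDN6 were lost and HSP90AA1 and AHSA1 entered. The group median of -0.13 lay between -0.18 and -0.08 over the alternatives and changed sign under none of those run. Of the log2 ratios of 38 genes, 2 left their counting interval with scaling by total counts and 20 with the subtraction of neighbours, and no gene called at 1.5-fold changed sign. Of the 8 summed class ratios, 4 left their interval with scaling by total counts and 4 with the upper quartile. Genes with few counts, such as DNAJB4 and HSPA2, have intervals wide enough to hide or enlarge a difference. No paired analysis was possible because each line has 1 library.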
